A study of Mus musculus with 27 samples.

Results

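The genes described here encode the RNA polymerase II transcription machinery with Mediator and Integrator. They were chosen by name: entries for Mediator (Med), Integrator (Ints), RNA polymerase II (Polr2a to Polr2m), TATA-binding-protein-associated factors (Taf), the general transcription factors named Gtf2, the Supt genes, and Cdk7, Cdk9, Ccnt1, Ccnt2, Ercc2 and Ercc3. The name rule found 106 of the 59489 entries of the deposited table, of which 23508 carry a gene symbol. Levels are in FPKM, fragments per kilobase of transcript scaled to a fixed total per library. For testing, 3 or more libraries of a fit had to reach 1 FPKM, and 101 of the 106 did so in every fit. The other 5 stayed under an FPKM of 1 in every library. They are Gtf2a1l and Taf7l, relatives of TFIIA and TFIID subunits known from the germline, Taf4b, Med18 of the Mediator head, and Med9os, a noncoding entry that only shares the Med name. Their highest FPKM were 0.0619, 0.298, 0.901, 0.718 and 0.469.

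Polyadenylated RNA was sequenced from wild type mouse primary cortical cells, taken at embryonic day 16.5 and grown for 14 days, in 27 libraries forming 9 groups of 3. All cells received a transcription inhibitor, and no group without one is used here. In 9 libraries the inhibitor was DRB (50 µM, 2 h), which blocks elongation, and the cells were unstimulated, given bicuculline (20 µM, 1 h), or given BDNF (50 ng/mL, 1 h); no RNA fraction is stated for them. In the other 18 libraries it was triptolide (1 µM, 3 h), which blocks initiation, with or without bicuculline, and RNA came from whole cells, nuclei or cytosol. Bicuculline blocks GABA-A receptors and so raises network activity, and BDNF is the ligand of the TrkB receptor. Nothing in the labels says that libraries of a group came from separate cultures, so p-values measure only the spread between these libraries, which may be technical.

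Transcription of protein-coding genes starts when TFIID and the other general factors place RNA polymerase II on a promoter. Mediator carries signals from transcription factors to the polymerase, and its kinase module binds reversibly. TFIIH opens the DNA with the helicase XPB (Ercc3), the protein to which triptolide binds, and its kinase Cdk7 phosphorylates the polymerase's tail. P-TEFb, made of Cdk9 and a T-type cyclin (Ccnt1 or Ccnt2), releases the paused polymerase into elongation and is the main target of DRB. Integrator cleaves nascent RNA at many noncoding and paused genes. In neurons this machinery serves the fast induction of genes by activity.

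Sequencing depth, estimated from the steps between low FPKM values, was 83379064 to 147891716 fragments in the DRB libraries and 67555896 to 89408490 in the triptolide libraries. Neuronal and astrocyte markers were present in every library (summed FPKM of 6 excitatory neuron genes 513 to 897), and the 5 microglia markers summed to at most 5.42. The 3 inhibitory neuron markers moved with the fraction, at 96.1 to 147 FPKM in nuclei and 179 to 292 in cytosol and whole cells, and their part in the results was not tested. The nuclear noncoding RNAs Meg3 and Mirg summed to 788 to 845 FPKM in unstimulated nuclei and 77.6 to 85.0 in unstimulated cytosol. Bicuculline nuclei stood apart from each other: this sum was 1296 in the library numbered 2 and 627 and 641 in those numbered 1 and 3. Under DRB the 3 libraries numbered 2 stood apart in the same 2 RNAs, at 331 to 344 against 137 to 212 in the other 6. Libraries with the same number resembled each other within each experiment, so fits with the number as a block are given where they change a call or a count.

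RefSeq promoters (GRCm38.p6, from 250 bases before to 50 after the start) are given for Polr2a, the catalytic subunit, and Polr2l, a small subunit shared by the nuclear polymerases. These 2 are the members called lower under DRB than under triptolide on the deposited FPKM, a comparison given at the end; with median-ratio scaling 9 members were, these 2 among them. Capitals mark matches to TATAAA (the TATA box) or TGACG (a half-site of the cAMP response element), searched on both strands. Polr2a lies on the minus strand at chr11:69758584-69758883 and Polr2l on the minus strand at chr7:141475104-141475403.
Polr2a: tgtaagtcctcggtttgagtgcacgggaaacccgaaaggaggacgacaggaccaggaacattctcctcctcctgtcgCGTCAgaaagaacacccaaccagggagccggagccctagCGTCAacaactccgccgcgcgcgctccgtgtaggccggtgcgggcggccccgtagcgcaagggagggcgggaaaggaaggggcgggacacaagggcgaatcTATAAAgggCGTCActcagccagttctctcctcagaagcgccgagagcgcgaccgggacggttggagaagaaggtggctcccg
Polr2l: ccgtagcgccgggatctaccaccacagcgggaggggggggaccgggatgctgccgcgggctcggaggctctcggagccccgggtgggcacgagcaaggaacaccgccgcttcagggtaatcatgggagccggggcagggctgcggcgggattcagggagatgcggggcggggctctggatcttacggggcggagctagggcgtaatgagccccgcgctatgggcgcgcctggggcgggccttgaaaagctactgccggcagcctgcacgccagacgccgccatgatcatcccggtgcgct
The Polr2a window holds TATAAA beginning 33 bases before the start and 3 half-sites on the reverse strand (letters CGTCA) beginning 173, 134 and 24 bases before it. The Polr2l window holds neither motif. Of 102 promoters of 86 member genes, 11.8% hold TATAAA, beside 12.6% of 21263 promoters of protein-coding genes. For TGACG the shares were 42.2% and 23.6%, and for TGACGTCA, the full element that contains the half-site, 3.92% and 2.23%. These matches describe letters, not binding.

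Levels differed widely among members. FPKM is a per-length scale, so genes can be set side by side on it. In unstimulated whole cells under triptolide the mean FPKM of the 101 tested members ran from 0.742 to 66.0 with a median of 6.92. Gtf2i, which encodes the signal-responsive factor TFII-I, was highest at 66.0 ± 1.28 (SD, n = 3). Polr2m, which encodes the polymerase-associated protein Gdown1, followed at 52.1 ± 4.37, and Gtf2h5, the smallest TFIIH subunit, at 50.2 ± 2.74. The last 2 did not differ beyond their spread. Polr2a was at 25.0 ± 0.979 and Cdk9 at 24.5 ± 2.84, again within their spread.

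The first comparison sets nucleus against cytosol in unstimulated cells. Transcripts of the 4 Med entries of Mediator's kinase module made up a larger share of nuclear than of cytosolic RNA. So did those of most Integrator subunits and of the TFII-I family. Those of the polymerase's own subunits and of TFIIA, TFIIB, TFIIE and TFIIF leaned to the cytosol. FPKM is relative to each library's total, so these are shares within a fraction and not molecules per cell. Of 101 members, 36 were higher in the nucleus and 35 lower, at a median log2 difference of -0.04. Among all 14205 entries tested, 39.0% were called higher and 28.0% lower, at a median of 0.06. With quantile normalization the median of all entries moved to -0.12 and the members split 28 higher and 54 lower. The shares of all entries called with quantile normalization are not given here, so this split has no background beside it. Under that scaling the kinase module kept 4 of 4 higher and the polymerase subunits had 0 of 13 higher and 11 lower, while Integrator had 6 of 11 higher and 4 lower and the TFII-I family 2 of 3 higher.

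All 4 kinase module entries found by the name rule were higher in the nucleus. The module's kinases and cyclin (Cdk8, Cdk19 and Ccnc) fall outside that rule and are counted with the other pathway genes. The entry Med12 // Nlgn3 merges Med12, the activator of the module's kinase, with the neighbouring gene of the synaptic adhesion protein neuroligin 3 (mm10 chrX:101274091-101321348), and the counts of the pair cannot be separated. It read 1.48, 1.71 and 1.58 FPKM in the cytosol and 12.2, 11.9 and 11.9 in the nucleus of unstimulated cells. Every nuclear library lay above every cytosolic one, and the log2 difference was 2.58 ± 0.16 (SE, adjusted p = 1.22e-09). Med12l, Med13l and Med13, the paralogue of Med12 and the pair that tether the module to core Mediator, differed by 1.31, 1.03 and 0.64. Med12l shares exon positions with genes on the opposite strand, the microglial P2ry12 among them, and the strand setting of the counting is not given in the sources used here.

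Integrator leaned the same way, with 7 of 11 members higher and 1 lower. Ints2 was at 3.20, 3.40 and 3.42 FPKM in cytosol and 7.87, 7.48 and 8.43 in nucleus, a log2 difference of 1.13 ± 0.09 (adjusted p = 2.95e-08). Ints6, Ints1 and Ints10 followed at 1.00, 0.99 and 0.96. Ints3, the subunit shared with a single-strand DNA-binding complex of DNA repair, was the exception at -0.27. The fractions of Ints2 did not overlap, and neither did those of Ints3, in the opposite direction.

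The 3 TFII-I family genes were all higher in the nucleus. Gtf2ird1 read 4.13, 4.11 and 4.06 FPKM in cytosol and 10.7, 10.2 and 10.6 in nucleus (log2 difference 1.26 ± 0.08, adjusted p = 1.14e-09). Gtf2i differed by 0.88 and Gtf2ird2 by 0.56. Gtf2ird1 and Gtf2i are neighbours in the region deleted in Williams-Beuren syndrome in humans.

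Among RNA polymerase II subunits none of 13 was higher in the nucleus and 9 were lower. Polr2d, part of the detachable stalk of the enzyme, was lowest at -0.41 ± 0.09 (adjusted p = 0.00046), with 14.1, 13.5 and 13.3 FPKM in cytosol and 10.7, 9.21 and 10.5 in nucleus. Polr2a was 23.9, 26.2 and 26.4 in cytosol and 21.0, 22.4 and 22.3 in nucleus, a smaller gap of -0.21 ± 0.06 (adjusted p = 0.00475). In both genes the fractions did not overlap. Of TFIIA, TFIIB, TFIIE and TFIIF, 5 of 7 tested members were lower, led by Gtf2b (TFIIB), the factor that links TATA-binding protein to the polymerase. Gtf2b had the lowest value of all members, at 11.7, 11.2 and 11.6 FPKM in cytosol and 6.81, 7.38 and 8.98 in nucleus (log2 difference -0.55 ± 0.13, adjusted p = 0.0014). Gtf2a1, the large TFIIA subunit, went the other way at 0.81 ± 0.22.

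Other complexes were split. In TFIIH 3 of 8 members were higher: Gtf2h3, a core subunit, at 1.42 ± 0.11, Cdk7 at 0.78 and the helicase gene Ercc2 at 0.53. Gtf2h1 at -0.35 and Gtf2h5 at -0.16 were lower, and Ercc3, the triptolide target, was not called at -0.04 (adjusted p = 0.569). In P-TEFb Cdk9 was higher by 0.65 and Ccnt2 by 0.35, while Ccnt1 was not called at 0.21 (adjusted p = 0.084; 0.0152 with the replicate block). Of the TFIID subunits 4 of 13 were higher and 5 lower, and Taf1, the scaffold of the complex, was higher by 0.42. In the tail of Mediator Med23 stood alone on the nuclear side at 1.47 ± 0.09 with 4 of 9 lower, and in the middle Med1 (0.61) and Med26 (0.41) were higher and 4 of 9 lower. Med26 turned to -0.30 under quantile normalization, where it was not called. Med4 and Med19 were the lowest of the middle module at -0.50 and -0.47.

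The Supt genes held the second largest nuclear value. Supt20, a subunit of the SAGA coactivator, read 4.05, 3.77 and 3.33 FPKM in cytosol and 18.2, 18.6 and 20.5 in nucleus (log2 difference 2.22 ± 0.16, adjusted p = 8.71e-09). Supt6, a histone chaperone of elongation, differed by 0.55, while 4 of the 7 Supt genes were lower, Supt5 of the pausing factor DSIF among them at -0.26. Supt20 shares exon positions with Exosc8 on the opposite strand. Taf1a and Taf1d, which serve RNA polymerase I, were higher in the nucleus by 1.12 and 0.62, though Taf1d hosts small nucleolar RNAs on its own strand and was not called under quantile normalization.

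**Figure D1:**
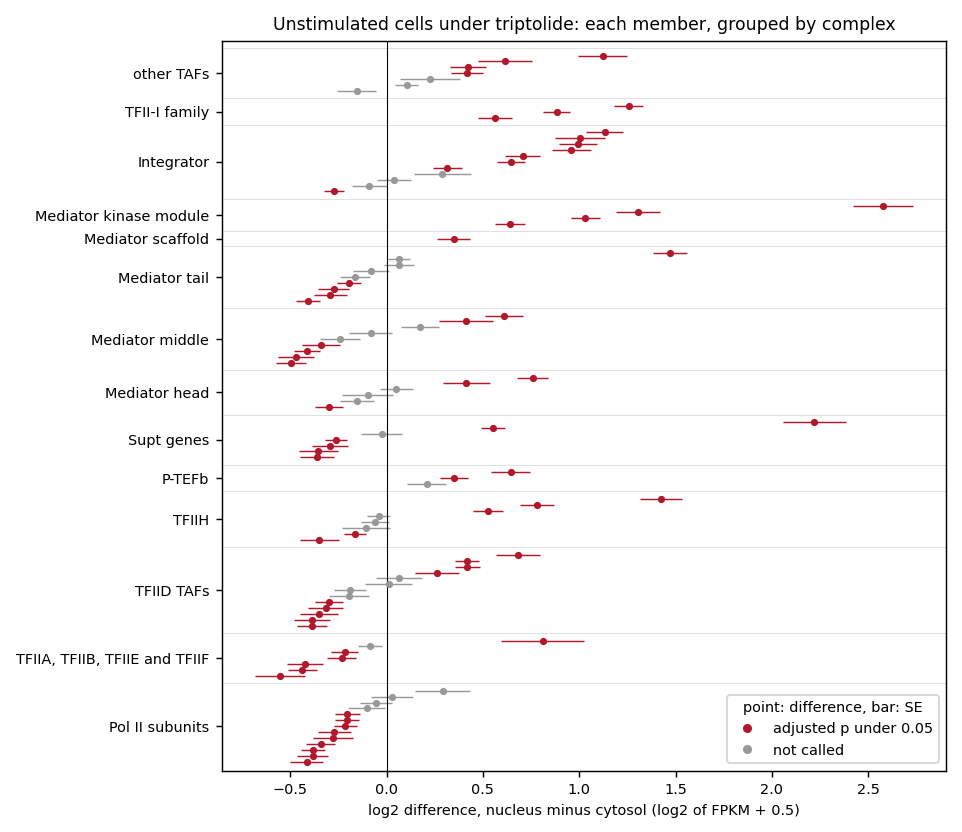
Log2 difference between nucleus and cytosol (horizontal axis, log2 of FPKM + 0.5) of each tested member in unstimulated cells under triptolide, grouped by complex on the vertical axis, with bars for the standard error and red for an adjusted p under 0.05. The 4 kinase module entries and the 3 TFII-I family genes lie to the right of 0, and 9 of 13 polymerase subunits are called on the left.

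Gene structure, which the choice of members did not use, ran along the same axis. Of 98 tested members with a protein-coding GENCODE model, the 22 with at least 20 introns had 16 higher and 4 lower in the nucleus at a median log2 difference of 0.54. The 50 with 1 to 9 introns had 7 higher and 27 lower at a median of -0.23. Across all 11015 tested protein-coding entries the same classes had medians of 0.37 and -0.11. Of the 1647 entries with at least 20 introns 991 were higher and 237 lower. Of the 5819 with 1 to 9 introns 1401 were higher and 2246 lower. Spearman's rho between intron number and the log2 difference was 0.51 across the 98 members and 0.27 across the 11015 entries. With the length of the longest transcript it was 0.53 and 0.22, and with the span of the gene 0.37 and 0.12. These describe genes that share the same libraries and are not independent replicates. The intron-rich genes Med12l (43 introns), Ints1 (46) and Gtf2i (34) sit on the nuclear side, and Supt5 (29) and Polr2a (28) do not. Gene models of 44 members share exon positions with another gene, 7 of them on the same strand.

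The other genes of the pathway, a list of 46 holding TATA-binding protein, the remaining kinases and cyclins, NELF, the PAF complex and termination factors, had 44 tested entries. Of these 18 were higher in the nucleus and 12 lower, at a median of 0.14, beside 39.0% and 28.0% of all entries. Setd2, the methyltransferase that travels with elongating polymerase, led at 1.85 ± 0.12, followed by Tcea2 at 1.36 and by Cdk12, a kinase of the polymerase's tail, at 1.17. Tbp stood at 1.02, and Rtf1 of the PAF complex at -0.33 was on the cytosolic side.

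With bicuculline, Med12 // Nlgn3, Supt20 and Integrator genes were again on the nuclear side and polymerase subunits on the cytosolic side. Of 101 members 26 were higher in the nucleus and 47 lower at a median of -0.15, beside 31.3% higher and 31.9% lower among all entries. Median-ratio scaling moved the median of all entries from -0.04 to 0.05 and gave 33 higher and 34 lower members. The shares of all entries called with that scaling are not given here. On the deposited FPKM the kinase module again had 4 of 4 higher, Integrator 7 of 11 higher and 1 lower, and the polymerase subunits 0 higher and 11 of 13 lower; with median-ratio scaling 8 of the 13 were lower, and the other 2 counts were as before. Med12 // Nlgn3 differed by 2.09 ± 0.16 (adjusted p = 2.75e-08), Supt20 by 1.40, Med12l by 0.98, Ints2 by 0.90 and Ints1 by 0.84. On the cytosolic side Med19 was at -0.59 ± 0.09 (adjusted p = 5.3e-05), Taf9b of TFIID at -0.58 and Polr2d at -0.56. Med23, Gtf2h3, Gtf2ird1 and Med13l, at 1.47, 1.42, 1.26 and 1.03 in unstimulated cells, were at 0.62, 0.64, 0.41 and 0.42. Polr2a (-0.17, adjusted p = 0.0237) was called here, but with neither of the other scalings, nor without the cytosolic bicuculline library 2 or 3 or the nuclear bicuculline library 1.

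Part of the list was higher in the cytosol with bicuculline. The nuclear RNAs Meg3 and Mirg summed to 118, 92.8 and 77.0 FPKM in bicuculline cytosol 1, 2 and 3. In unstimulated cytosol they summed to 85.0, 78.2 and 77.6. The part of nuclear RNA in the cytosolic fraction was not tested. There 15 of 101 members rose and none fell (none at an unadjusted p under 0.05 either), at a median log2 change of 0.16; among all entries 3.18% rose and the median was 0.08. With the replicate block 35 members rose, beside 14.5% of all entries. With median-ratio scaling, under which the median of all entries was 0.00, Med23 was the 1 member that rose, beside 0.113% of all entries. Leaving out 1 library gave 1 member without the bicuculline library or the unstimulated library numbered 3. It gave 2, 5, 5 and 9 without the unstimulated library 1, the bicuculline libraries 1 and 2, and the unstimulated library 2. Shares of all entries in these fits are not given here.

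Med23, a tail subunit that receives signals from transcription factors of the ERK pathway, rose most. Its cytosolic FPKM was 2.24, 2.57 and 2.52 in unstimulated cells and 4.57, 4.50 and 4.96 with bicuculline (log2 change 0.81 ± 0.09, adjusted p = 0.000973). The groups did not overlap, and Med23 was called under every alternative run. Supt20 went from 4.05, 3.77 and 3.33 to 6.88, 5.07 and 6.54 (0.65 ± 0.16, adjusted p = 0.0431). Gtf2h3 went from 3.75, 3.35 and 3.30 to 5.02, 5.25 and 5.12 (0.51 ± 0.11, adjusted p = 0.0245). Neither gene's groups overlapped, but Supt20 lost its call in 11 of 15 alternatives and Gtf2h3 in 9. Gtf2ird1 rose by 0.47, Taf5l of SAGA by 0.45 and Med13l by 0.43. Ccnt2 (0.36), Cdk7 (0.35) and Med14, the Mediator scaffold (0.32), were also called, with Cdk7 at 5.85, 5.40 and 5.41 before and 7.11, 6.68 and 7.87 after. Gtf2f1, Med24, Taf2, Med15, Taf1b and Supt5 completed the 15 at 0.23 to 0.30. None of 11 Integrator and none of 13 polymerase subunits was among them, but with the replicate block Polr2a (adjusted p = 0.00247), Polr2b (0.0159), Polr2c (0.0227), Ints10 (0.02) and Ints5 (0.0302) were called, at log2 changes of 0.21 to 0.32.

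In the nucleus bicuculline changed 2 members. Polr2a rose from 21.0, 22.4 and 22.3 FPKM to 25.1, 26.4 and 27.6 (log2 change 0.26 ± 0.06, adjusted p = 0.037). Gtf2ird1 fell from 10.7, 10.2 and 10.6 to 7.95, 8.91 and 7.26 (-0.37 ± 0.08, adjusted p = 0.025). Neither gene's groups overlapped. Among all entries 0.986% rose and 0.824% fell, so 1 member each way is near that background. With the replicate block 7 members rose and 3 fell, beside 7.72% and 5.39% of all entries. Polr2a lost its call without any 1 of 5 of the 6 libraries, all but bicuculline library 2. Gtf2ird1 lost its call without any 1 of 4 (numbers 1 and 3 of either group). Without bicuculline library 2, 2 members rose and 4 fell, with no share of all entries in that fit beside them.

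Whole cells gave no call under bicuculline: 0 members rose and 0 fell, beside 0.0141% and 0.0211% of all entries. At an unadjusted p under 0.05, 21 members were higher and 0 lower. The share of all entries at that unadjusted level is not given here, so these counts are not a result about the members. With the replicate block 10 members rose, beside 3.72% of all entries, among them Polr2a (0.24, adjusted p = 0.125 without and 0.00326 with the block), Supt5 (0.25) and Med23 (0.32). Polr2a was at 23.9, 25.3 and 25.8 FPKM before and 28.6, 30.1 and 30.4 after, with no overlap.

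The change with bicuculline was set against itself between nucleus and cytosol. In 4 members the nuclear change was lower than the cytosolic one, and in none higher (0 at an unadjusted p under 0.05); among all entries 0.472% were lower. The 4 are Med23 (-0.85 ± 0.12, adjusted p = 0.00997), Gtf2ird1 (-0.84 ± 0.11, adjusted p = 0.00339), Gtf2h3 (-0.78 ± 0.16, adjusted p = 0.0343) and Med13l (-0.61 ± 0.11, adjusted p = 0.02). With median-ratio scaling Gtf2h3 was not called (adjusted p = 0.0564). With the replicate block 11 members were lower, beside 6.92% of all entries. Supt20 differed by -0.82 ± 0.23 without a call (adjusted p = 0.124).

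The nuclear levels behind these values differed among the 4 genes. Med23 in the nucleus was at 7.60, 7.44 and 7.97 FPKM in unstimulated cells and 7.36, 8.30 and 6.79 with bicuculline, overlapping groups with a log2 change of -0.04 that was not called. Gtf2ird1 was lower in the nucleus and higher in the cytosol in each of the 3 numbered pairs, by -0.40, -0.19 and -0.51 and by 0.50, 0.42 and 0.50. Gtf2h3 in the nucleus went from 10.4, 9.57 and 10.5 to 8.32, 10.3 and 6.65, and Med13l from 15.3, 14.8 and 15.4 to 13.1, 14.9 and 12.1. In these 2 genes the bicuculline nuclei numbered 1 and 3 were low and number 2 was within the unstimulated range. These are the same libraries that differed in Meg3 and Mirg. Med23 was likewise below the unstimulated range in numbers 1 and 3, and Gtf2ird1 fell least in number 2. Over all tested entries, the main axis of variation (70.1%) ran from cytosol to nucleus. Bicuculline nuclei 1 and 3 stood at 30.8 and 27.6 on it, beside 48.3 for number 2 and 43.1 to 47.5 for unstimulated nuclei. Bicuculline cytosols stood at -40.9 to -34.1 and unstimulated ones at -45.5 to -43.8. The part of these libraries in the result was not tested for any of the 4 genes. Without bicuculline nucleus 2 the count was 11, with no share of all entries in that fit beside it. It was 2 without any 1 of the bicuculline nuclei 1 and 3, the unstimulated nuclei 1 and 3, the bicuculline cytosol 1 and the unstimulated cytosol 3, with Med23 and Gtf2ird1 called in every such fit.

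**Figure D2:**
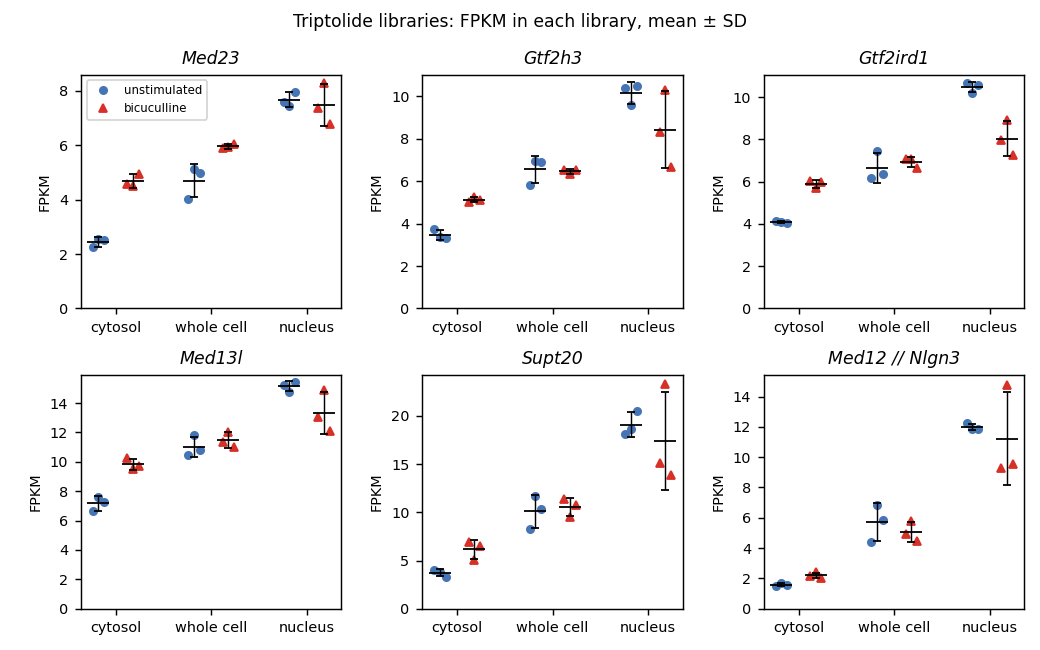
FPKM (vertical axis, from 0) of 6 members in each triptolide library by RNA fraction, blue circles for unstimulated cells and red triangles for bicuculline, with the mean and SD of 3 libraries in black. Cytosolic Med23 rises from 2.24 to 2.57 up to 4.50 to 4.96 FPKM, while the nuclear bicuculline libraries of Supt20 and Med12 // Nlgn3 are spread widely, with 1 library above the unstimulated ones.

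**Figure D3:**
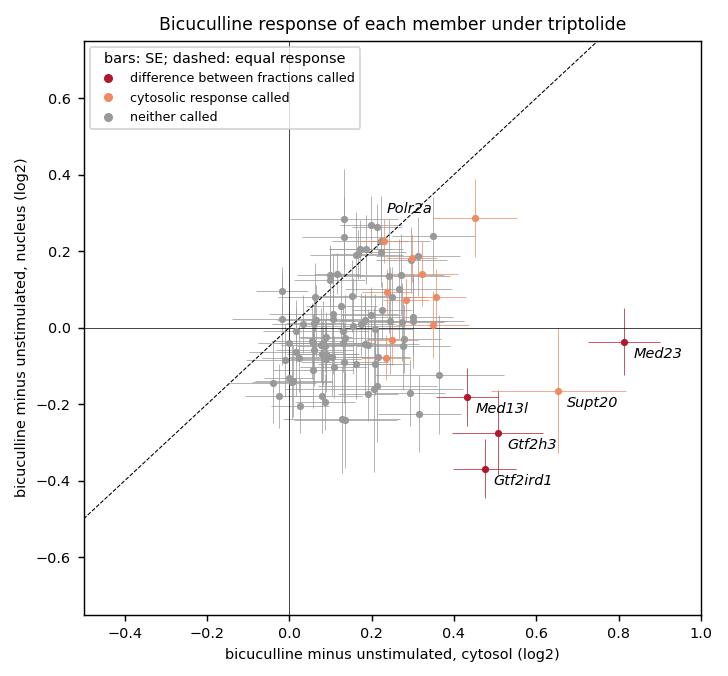
Log2 change with bicuculline in the nucleus (vertical axis) against that in the cytosol (horizontal axis) for each of 101 tested members, with bars for standard errors and a dashed line for equal changes. The 4 red points, Med23, Gtf2ird1, Gtf2h3 and Med13l, lie below the dashed line, to the right of 0 on the cytosolic axis and under 0 on the nuclear one.

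Under DRB BDNF raised Taf7, a TFIID subunit known to restrain the acetyltransferase activity of Taf1 and encoded by a gene with 1 intron. Taf7 was at 1.96, 2.17 and 1.82 FPKM in unstimulated cells and 4.05, 3.72 and 3.74 with BDNF (log2 change 0.81 ± 0.10, adjusted p = 0.00641). The groups did not overlap, and Taf7 was called in every fit in which it was tested. It was the only member called (1 of 101, beside 0.638% of all entries), and no member was lower at an unadjusted p under 0.05. With the replicate block 2 members rose, beside 1.46% of all entries. The second is Med26, which brings elongation factors to Mediator, at 2.18, 1.44 and 2.26 unstimulated and 3.71, 2.79 and 3.62 with BDNF (0.66 ± 0.17, adjusted p = 0.312 without and 0.00217 with the block). The library numbered 2 was lowest for Med26 in each of the 3 groups, and within each number BDNF was the highest.

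Bicuculline under DRB changed no member (0 of 101, beside 0.308% higher among all entries). At an unadjusted p under 0.05, 4 members were higher and 0 lower, with no share of all entries at that level beside them. Ints12, the PHD-finger subunit of Integrator, had the largest value at 0.51 ± 0.10 (adjusted p = 0.175). It read 1.77, 2.08 and 1.60 FPKM unstimulated and 2.97, 2.63 and 2.76 with bicuculline, groups without overlap. With BDNF it read 2.30, 2.18 and 2.27, between the other groups. Taf7 with bicuculline was at 2.28, 2.76 and 2.32, a log2 difference of 0.25 that was not called (adjusted p = 1.0), though its groups did not overlap.

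BDNF against bicuculline draws on the same 9 libraries as the previous comparisons and shares groups with both. It gave 0 calls among members, beside 0.113% higher among all entries. At an unadjusted p under 0.05, 4 members were higher and 2 lower. The share of all entries at that unadjusted level is not given here. With the replicate block 2 members were higher with BDNF, beside 0.45% of all entries. They are Taf7 (0.56 ± 0.10, adjusted p = 0.134 without and 0.0279 with the block) and Med26 (0.51 ± 0.17, adjusted p = 1.0 without and 0.0189 with the block). Leaving out all DRB libraries numbered 2 left the BDNF call of Taf7 at 0.88 (adjusted p = 0.0249). Among the 44 other pathway genes none was called under DRB in any of the 3 comparisons. The largest BDNF value was that of Pcf11, a termination factor, at 0.45 ± 0.10 (adjusted p = 0.132).

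**Figure D4:**
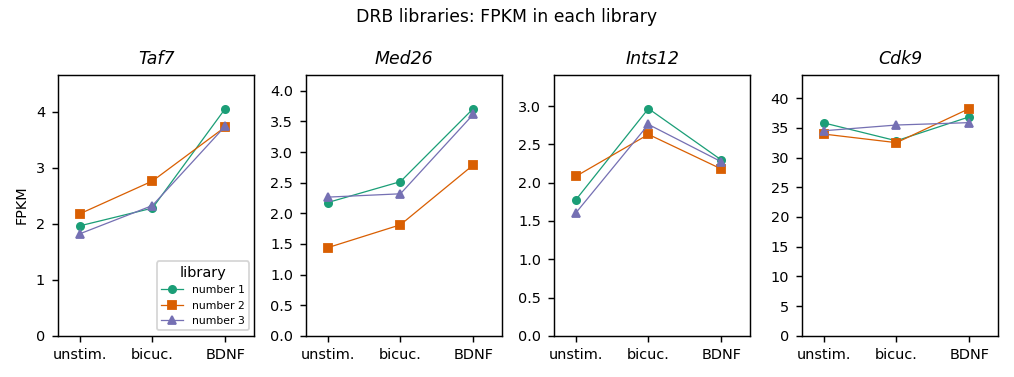
FPKM (vertical axis, from 0) of Taf7, Med26, Ints12 and Cdk9 in each DRB library by stimulus, with lines joining libraries that carry the same number. Taf7 and Med26 are highest with BDNF and Ints12 with bicuculline in every numbered set, while Cdk9 lies between 32.5 and 38.2.

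Cdk9, the kinase inhibited by DRB, and Ercc3, the triptolide target, were not called between stimuli in any fraction without the replicate block. With the block Cdk9 was called in the cytosol under bicuculline (0.27, adjusted p = 0.145 without and 0.0204 with the block), as was Ccnt1 (0.31, adjusted p = 0.102 without and 0.00976 with it), beside Ccnt2, which rose there without it. Cdk9 was at 35.8, 34.0 and 34.5 FPKM in unstimulated DRB cells, 32.8, 32.5 and 35.5 with bicuculline and 36.8, 38.2 and 35.9 with BDNF. The BDNF libraries lay above all others, by a log2 difference of 0.09 from unstimulated cells that was not called (adjusted p = 1.0). Ercc3 in whole cells under triptolide was at 9.24, 9.17 and 8.58 unstimulated and 9.48, 9.69 and 9.72 with bicuculline. Its groups did not overlap and it was not called, as was also the case for Ints3, Ccnt2 and others.

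The last comparison sets unstimulated DRB cells against unstimulated whole cells under triptolide. Nearly the whole machinery took a larger share of the RNA under DRB: 85 of 101 members were higher and 2 lower, at a median log2 difference of 0.55. Among all 13331 entries tested 50.1% were higher and 15.9% lower, with a median of 0.27. Median-ratio scaling moved the median of all entries to -0.02 and left 53 members higher and 9 lower, beside 27.3% and 30.6% of all entries, with a median of 0.25. Inhibitor, duration and experiment changed together, and no RNA fraction is stated for the DRB libraries. These differences cannot be told apart. In bulk RNA, fewer cells of a type and less RNA per cell cannot be told apart either. Markers of the oligodendrocyte lineage moved with this comparison: the 5 genes summed to 169 to 221 FPKM under DRB and 70.3 to 85.3 under triptolide, and all 5 were detected. The 2 proliferation markers summed to 7.20 to 14.7 FPKM under DRB and 5.36 to 6.73 under triptolide, the 5 microglia markers to 0.265 to 0.953 and 0.911 to 3.17, and Meg3 with Mirg to 162 to 344 and 331 to 565. The part of these RNAs in the result was not tested.

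By complex, all tested members of Mediator's head (6 of 6), its middle (9 of 9), TFIIH (8 of 8) and P-TEFb (3 of 3) were higher. With median-ratio scaling 5 of 6, 8 of 9, 6 of 8 and 1 of 3 were. These counts cover members alone, and Ccnh and Mnat1 of TFIIH are among the other pathway genes. Taf5l and Supt7l, which encode subunits of SAGA, had the largest values, while Supt20 of the same complex was at -0.22 (adjusted p = 0.212). Taf5l was at 2.86, 3.67 and 3.17 FPKM under DRB and 0.758, 0.766 and 0.773 under triptolide (log2 difference 1.56 ± 0.11, adjusted p = 2.2e-05). Supt7l was at 6.82, 5.54 and 6.63 against 1.92, 2.09 and 2.15 (1.42 ± 0.11, adjusted p = 2.45e-05). Neither gene's groups overlapped, and both stayed above 1 on the log2 scale with median-ratio scaling, at 1.32 and 1.14. Med8, Med6 and Med11 of the Mediator head followed at 1.05, 1.05 and 1.04, and Polr2e, a subunit shared by all nuclear polymerases, at 1.00. Cdk9, Ccnt2, Gtf2b, Med13 and Med14 were higher by 0.43 to 0.52 but were not called with median-ratio scaling. Ercc3 was higher by 0.58 and Cdk7 by 0.60, and both kept their call there. The kinase module had 2 of 4 higher and Integrator 8 of 11, with Ints1 at 0.02 (adjusted p = 0.764). With median-ratio scaling the kinase module had 0 of 4 higher and 1 lower, Integrator 5 of 11 higher and 1 lower, and Ints1 stood at -0.29 (adjusted p = 0.00382).

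On the deposited FPKM the 2 members called lower are the polymerase subunits whose promoters are printed above. With median-ratio scaling Gtf2a1 (-0.52), Taf13 of TFIID (-0.53), Supt20 (-0.52), Taf15 (-0.49), Med12l (-0.40), Ints1 (-0.29) and Gtf2i (-0.19) were called lower as well. Of these Taf13 was lower without overlap on the deposited values too (-0.23, adjusted p = 0.0535). Polr2a was at 17.9, 15.4 and 17.0 FPKM under DRB and 23.9, 25.3 and 25.8 under triptolide, a log2 difference of -0.56 ± 0.08 (adjusted p = 0.00029). Polr2l was at 3.82, 3.03 and 3.86 against 9.34, 8.49 and 8.10, a log2 difference of -1.17 ± 0.11 (adjusted p = 6.09e-05). In both genes every DRB library lay below every triptolide library, and both were called under every alternative run. Without the triptolide library 3 the count of lower members was 4, with no share of all entries in that fit beside it. Of the 13 polymerase subunits 10 were higher, with 4 still called higher under median-ratio scaling, Polr2b, which forms the active cleft with Polr2a, at 0.73 among them. Polr2l was low in all 9 DRB libraries (2.71 to 4.62) against 7.20 to 9.34 in all 18 triptolide libraries, whatever the fraction or stimulus. Of the 44 other pathway genes tested 39 were higher and 2 lower, at a median of 0.60, beside 50.1% and 15.9% of all entries. Their counts with median-ratio scaling are not given here.

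**Figure D5:**
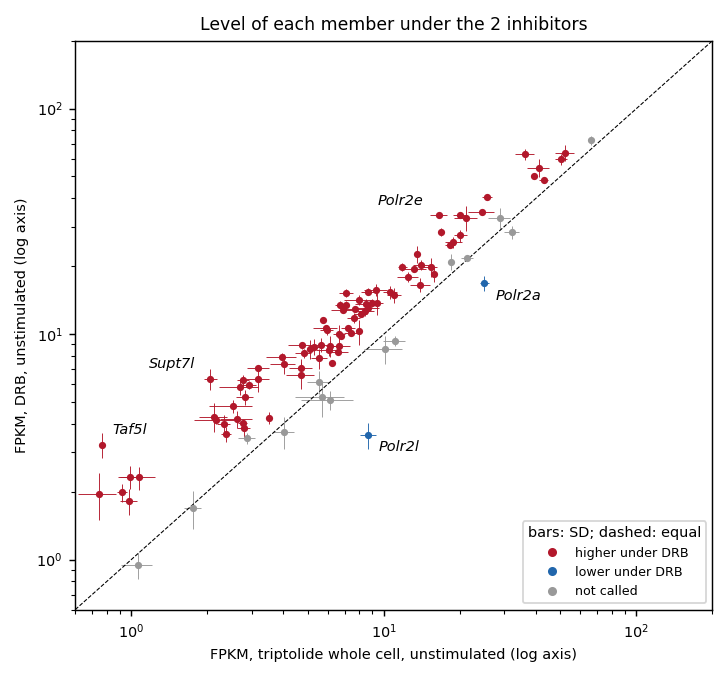
Mean FPKM of each tested member in unstimulated DRB cells (vertical log axis) against unstimulated whole cells under triptolide (horizontal log axis), with bars for the SD of 3 libraries and a dashed line for equal levels. Most points lie above the line, Taf5l and Supt7l farthest, and the blue points Polr2a and Polr2l lie below it.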

How the data were processed

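RNA was read from 27 libraries (TruSeq Stranded mRNA kit, 200 ng of total RNA, per the labels' protocols). The deposited table holds FPKM values that the authors computed per gene model and library on mm10; the submitters' processing notes name STAR 2.4.0, SAMtools, Picard and FastQC. Which program counted the reads, and whether it used strand, is not given in the sources used here. The deposited values were not rescaled; tests ran on log2(FPKM + 0.5), so fold changes of low genes are understated. Depth was estimated from the steps of low values and whole reads were not recovered, so no count test was run.

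Entries entered a fit when 3 or more of its libraries reached 1 FPKM (14205 in the 18 triptolide libraries, 13321 in the 9 DRB libraries, 13331 in the 6 unstimulated libraries of the last comparison). The model, in limma 3.58.1 (R 4.3.3), had 1 mean for each group and trended, robust variance moderation, and p-values were adjusted by Benjamini-Hochberg over all entries of the fit, with calls at an adjusted p under 0.05. There were 10 comparisons. Counts of members at an unadjusted p under 0.05 are given without the share of all entries at that level. Groups without overlap are stated gene by gene, with no share over all entries, and are not a test. Alternatives were 2 other scalings, pseudocounts of 0.1 and 1, other filters on low values, fits without trend and robust moderation, the replicate block, and leaving out each library. The script was tested on simulated data with noise drawn separately for each library. That test does not cover the likeness of same-numbered libraries, and its outcome is not given here. Members, complexes and the pathway list were chosen with earlier results of these data known. Named genes are the 8 largest called differences each way with a mean FPKM of at least 2, plus a set of 20 core members; Taf5l and others beyond these were named after their values were seen. Of the 20, Ints11 has no entry under that name and Med12 is merged with Nlgn3. Further merged entries are Ak6 // Taf9 and Med20 // Usp49. The Integrator genes listed under the older names Cpsf3l, Asun, Vwa9 and Ddx26b fall outside the name rule.

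Replicate numbers were checked for pairing. Deviations from group means correlated at 0.256 to 0.902 between same-numbered libraries in every comparison within an experiment, and at -0.06 to 0.11 between experiments; the labels do not say what a number marks. Gene structure and overlaps come from GENCODE M21, matched by name and position for 103 members, and promoters from RefSeq. Tables and plots were made with matplotlib 3.10.9, numpy 2.4.6 and pandas 2.3.3 under Python 3.11.15.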

Additional observations from a re-analysis of the deposited data

Results flagged for a closer look

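The change with bicuculline differed between nucleus and cytosol in 4 genes, by a test of the difference itself (limma interaction term). The log2 difference of the changes, nucleus minus cytosol, was -0.85 for Med23, -0.84 for Gtf2ird1, -0.78 for Gtf2h3 and -0.61 for Med13l. Gtf2h3 lost its call with median-ratio scaling (adjusted p = 0.0564), and without any 1 of 6 libraries 2 genes were called; Med23 and Gtf2ird1 were called under every alternative run. In all 4 genes the bicuculline nucleus numbered 2 was higher than those numbered 1 and 3, and the part of this in the result was not tested. Groups of 3 libraries were not tested for single libraries far from the others.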

How the results depend on the processing

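Of 97 called results of named genes, 72 kept direction and call under every alternative. Over their 1462 values, 1333 kept both, 128 kept the direction and lost the call, and 1 turned, Med26 between nucleus and cytosol at -0.30 with quantile normalization; the cause was not tested. Of 139 uncalled results of named genes 107 were never called. Counts of members past the threshold moved by over 1.5 times in 53 of 318 values; a cause was tested in none. The counts below are of members alone and have no share of all entries beside them here. With quantile normalization 54 members were lower in unstimulated nuclei than in cytosol. In the nuclear bicuculline response the count of members that rose was 2 with an FPKM minimum of 5, 2 with median-ratio scaling, 5 with quantile normalization, 7 with the replicate block, 8 with the block and median-ratio scaling and 0 without trend and robust moderation, and the count that fell was 3 with the block and 5 with the block and that scaling. In the cytosolic response it was 4 without a filter on low values, 1 with median-ratio scaling, 1 with quantile normalization and 35 with the replicate block. In the whole-cell response it was 10 with the block and 5 with the block and median-ratio scaling. For the difference between nucleus and cytosol the count was 2 without a filter, 2 with quantile normalization and 11 with the replicate block. The BDNF count was 0 with an FPKM minimum of 5, where Taf7 and Med26 were not tested, and 2 with the block, alone or with median-ratio scaling; BDNF against bicuculline gave 2 under both. Between DRB and triptolide 53 members were higher with median-ratio scaling and 50 with the block added to it, and 9 and 10 were lower, with 8 lower under quantile normalization.

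Leaving out 1 library at a time gave 34 to 37 members higher and 30 to 35 lower in unstimulated nuclei against cytosol, 24 to 27 and 41 to 45 with bicuculline, 0 to 2 higher and 0 to 4 lower in the nuclear response, 1 to 9 higher in the cytosolic response, 2 to 11 lower in the difference of the responses, 1 to 1 higher with BDNF, and 77 to 83 higher and 2 to 4 lower between DRB and triptolide. Among results of named genes the replicate block ended 0 calls and added 21, of which 9 are rises in the cytosolic bicuculline response.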
